A study of Homo sapiens with 32 samples.

Results

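LNCaP cells that had received EGF for 1 hour were compared with cells kept in the same medium without growth factor, to describe which gene functions the ligand moved at that time. The 8 libraries were chosen by their labels alone, 4 with EGF and 4 without, out of 32 in the series. LNCaP is a human prostate cancer line that came from a lymph node metastasis, carries an androgen receptor and depends on androgen for growth. In both groups, cells were plated in RPMI with fetal bovine serum (FBS), rinsed a day later and moved into medium with charcoal-stripped serum (CSS), which is poor in steroid hormones, and RNA with a poly(A) tail was made into libraries that keep strand. The EGF group received 100 ng/mL EGF for 1 hour on the following day, and the control group, called CSS here, received none. The other 24 libraries of the series came from cells kept in FBS and from CSS cultures exposed to EGF for other times or to NRG-1, and they entered the same statistical fit. Each group held 2 replicates in each of 2 batches, and because 1 cell line was used, P values measure the spread between cultures of that line.

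EGF binds its receptor EGFR, which then signals through RAS, RAF, MEK, and ERK and through PI3K and AKT. ERK phosphorylates transcription factors that are already present, among them partners of serum response factor (SRF), so that a first wave of genes is transcribed without new protein being made. Products of that wave include transcription factors that drive later genes, and phosphatases and adaptor proteins that switch the pathway off again. In prostate epithelium, EGF receptors act beside the androgen receptor as a growth signal.

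Total expected counts ran from 66903121 to 87130351 in the CSS libraries and from 69090671 to 80300923 in the EGF libraries, so counting error was small for all but the lowest genes. All 9 luminal prostate markers were expressed, with summed TPM (a level per transcript length) of 3523 to 4058 in CSS and 4151 to 4438 with EGF. Basal markers summed to at most 0.310 TPM in any library, and markers of fibroblasts, immune cells, endothelium, and neuroendocrine cells to at most 5.8 TPM. Of the luminal markers, *KRT8* and *KRT18*, which encode keratins of simple epithelia, rose with EGF (log2 fold changes 0.67 and 0.58). In bulk RNA, a change in every cell cannot be told apart from a change in the share of cells that hold the RNA. Levels below are CPM, that is counts over library size after TMM scaling, and values after ± are SDs over 4 libraries. Library values are listed in the order batch 1 replicates 1 and 2, then batch 2 replicates 1 and 2.

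EGF raised 248 genes and lowered 45 within 1 hour in the edgeR fit, where a call needed an adjusted P value under 0.05 and a log2 fold change of more than 1 in size. These differentially expressed genes (DEGs) were 1.46% and 0.265% of the 16995 genes tested, and the median log2 fold change over all genes tested was -0.01. With batch 1 alone, 223 genes were higher and 38 lower, and with batch 2 alone, 199 and 21. On log2(TPM + 1) with limma, 140 were higher and 6 lower, so that rises were 95.9% of the calls in place of 84.6%. The EGF and CSS libraries did not overlap in 234 of the 248 rising and 38 of the 45 falling DEGs, beside 13.4% of all genes tested. The same libraries made the calls, so this separation follows largely from the selection and is a description only. Rises were also larger than falls. A log2 fold change beyond 2 was reached by 104 rising DEGs and beyond 5 by 21, whereas no falling DEG went beyond 3 and 6 went beyond 2.

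Many of the rising genes were close to silent in CSS. Their median level in CSS was 1.24 TPM, against 9.67 TPM over all genes tested, and 120 of the 248 lay below 1 TPM, that is 48.4% against 26.4% of all genes. Of the 248, 80 were still below 1 TPM with EGF. In sum, the 248 genes made up 4046 to 4747 TPM of each CSS library and 13837 to 17035 TPM of each EGF library. The 45 falling genes summed to 405 to 547 TPM in CSS and to 105 to 120 TPM with EGF. The largest single part of the rise was *ACTB*, which encodes cytoplasmic beta-actin, at 2157 TPM in CSS and 4462 TPM with EGF. Leaving out the EGR genes, the next highest rising genes in TPM with EGF were *GDF15*, *ATF3*, *TPM4*, and *MCL1*, which belong to groups described in turn below.

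**Figure D1:**
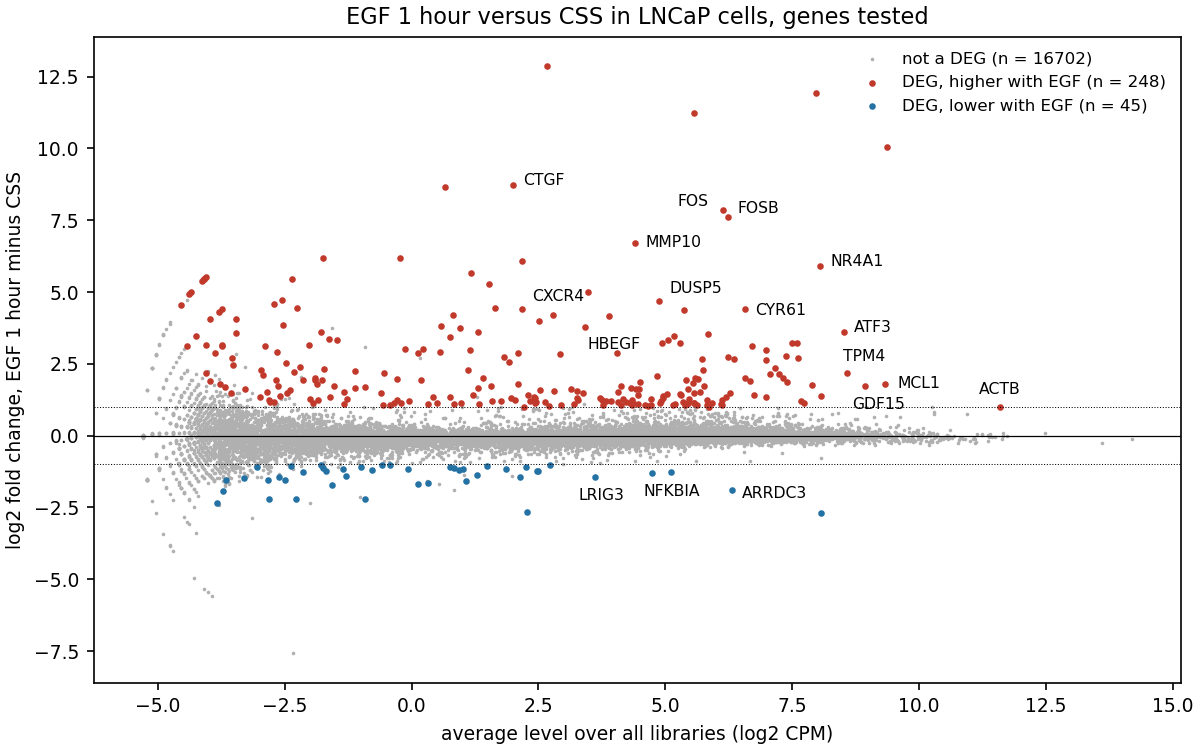
Each point is 1 gene. The horizontal axis is its average level (log2 CPM) over all EGF 1 hour and CSS libraries. The vertical axis is its log2 fold change, EGF 1 hour over CSS. The 248 higher and 45 lower DEGs are colored, and rising genes reach much further from 0 than falling ones.

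Genes were grouped into 34 lists of known function, compiled with earlier results of these data in view, which together held 529 tested genes and 93 of the DEGs. Counts of DEGs in each list are given beside the background of 1.46% higher and 0.265% lower, and counts past the adjusted P value alone beside 6% higher and 3.51% lower. The EGR genes, *TXNIP*, and *NUAK2* were left out of the gene lists.

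Most genes of the AP-1 transcription factor family rose. AP-1 is a dimer of FOS, JUN, ATF, or MAF proteins that binds DNA in response to growth signals. Of 15 tested AP-1 genes, 9 were higher DEGs, 12 were higher by adjusted P value alone, none was lower, and the median log2 fold change was 1.13. *FOSB*, a FOS family subunit, was at 0.581, 0.544, 1.13, and 0.692 CPM in the CSS libraries and at 185, 189.6, 108, and 113 CPM in the EGF libraries (log2 fold change 7.62, SE 0.25, edgeR adjusted P = 5.31e-20). Every EGF library lay far above every CSS library, and with EGF batch 1 lay above batch 2. *FOS* itself went from 0.619 ± 0.0736 to 139.7 ± 37.0 CPM (log2 fold change 7.85), and *FOSL1*, a late FOS relative, from 0.0866 ± 0.0114 to 4.43 ± 0.173 CPM (5.66). The small MAF protein gene *MAFF* rose by 4.18 and its relatives *MAFK* and *MAFG* by 1.47 and 1.08 on the log2 scale. *ATF3*, a stress-responsive AP-1 partner, reached 626 TPM from 49.7 TPM, and *JUNB* rose from 29.3 ± 8.07 to 223 ± 8.80 CPM.

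The *JUN* gene behaved differently from its relatives. *JUN*, the classical partner of FOS, was at 134, 146, 91.6, and 87.6 CPM in CSS and 216, 214, 109, and 107 CPM with EGF, and the groups overlapped. Its log2 fold change of 0.46 passed the adjusted P value in the full fit (edgeR adjusted P = 0.00156) but not in batch 2 alone (edgeR adjusted P = 0.569), and it was no DEG. *JUND* rose by 0.74, also below the fold limit. *BATF*, *BATF2*, and *BATF3*, which act in lymphocytes, had log2 fold changes between -0.31 and 0.38 and did not pass.

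All 3 NR4A genes, which encode orphan nuclear receptors that need no ligand, were higher DEGs. *NR4A1* was at 8.48, 8.75, 8.97, and 8.26 CPM in CSS and at 603, 606, 443, and 428 CPM with EGF (log2 fold change 5.90, SE 0.12, edgeR adjusted P = 4.90e-25). The lowest EGF library was far above the highest CSS library. *NR4A3* rose from 0.141 ± 0.0524 to 5.61 ± 0.592 CPM (log2 fold change 5.26), whereas *NR4A2* rose less, from 0.935 ± 0.184 to 2.40 ± 0.399 CPM (1.35). In TPM, *NR4A1* therefore outweighed the other 2 by a wide margin, with 387 TPM against 1.79 TPM for *NR4A3*.

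Kruppel-like factors are zinc finger proteins that bind GC-rich promoters and steer growth and differentiation. Of 13 tested, 5 were higher DEGs, 8 were higher by adjusted P value alone, and none was lower. *KLF10*, which TGF-beta also induces, was at 36.0, 37.5, 36.3, and 38.9 CPM in CSS and at 323, 319, 361, and 387 CPM with EGF (log2 fold change 3.22, SE 0.09, edgeR adjusted P = 1.92e-21). The groups were far apart in both batches. *KLF4* and *KLF6* rose by 2.88 and 1.92 on the log2 scale, and *KLF5* and *KLF16* by 1.25 and 1.05. *KLF3*, *KLF7*, *KLF12*, *KLF13*, and *KLF15* did not pass, with log2 fold changes from -0.26 to 0.55.

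Small early response genes of the IER, PHLDA, BTG, and CSRNP families split by direction. Of 13 tested, 5 were higher DEGs, namely *IER2*, *IER5L*, *PHLDA1*, *PHLDA2*, and *CSRNP1*. *CSRNP1*, a nuclear protein first found as a target of AXIN1, rose from 21.6 ± 0.738 to 187 ± 16.7 CPM, and *IER2* rose from 46.9 ± 3.85 to 239 ± 41.6 CPM (log2 fold change 2.34, edgeR adjusted P = 3.06e-17). *BTG2*, which restrains proliferation, fell from 47.4 ± 3.85 to 30.3 ± 0.651 CPM (log2 fold change -0.64, edgeR adjusted P = 5.41e-08), whereas its relative *BTG1* rose by 0.51. Neither passed the fold limit. *IER3*, one of the best known members, had a log2 fold change of 0.10 and did not pass.

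Among 26 other tested transcription factor genes linked to growth signals, 7 were higher DEGs and 1 was lower. *SRF*, whose protein drives both early response and muscle-type actin genes, rose from 55.7 ± 2.88 to 247 ± 27.3 CPM (log2 fold change 2.15, SE 0.09, edgeR adjusted P = 5.49e-17). *HES1*, a repressor downstream of Notch, went from 1.03 ± 0.148 to 7.53 ± 1.27 CPM, and *SNAI2* and *SNAI1*, repressors of epithelial adhesion genes, rose by 2.92 and 1.09 on the log2 scale. *ETS2* and *FOXC1* were also higher DEGs. *ETV4*, an ETS factor, was called at a level of only 0.166 ± 0.0701 CPM with overlapping groups. It did not pass the adjusted P value in 12 of 19 alternatives. *MYC*, the growth-promoting factor whose gene often responds to mitogens, was at 254, 264, 256, and 256 CPM in CSS and 196, 206, 213, and 217 CPM with EGF. This was a small fall (log2 fold change -0.31, edgeR adjusted P = 7.70e-05) that did not pass in batch 2 alone (edgeR adjusted P = 0.312). *SOX9*, a factor of ductal progenitors, was the falling DEG, from 6.43 ± 1.29 to 3.00 ± 0.547 CPM.

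**Figure D2:**
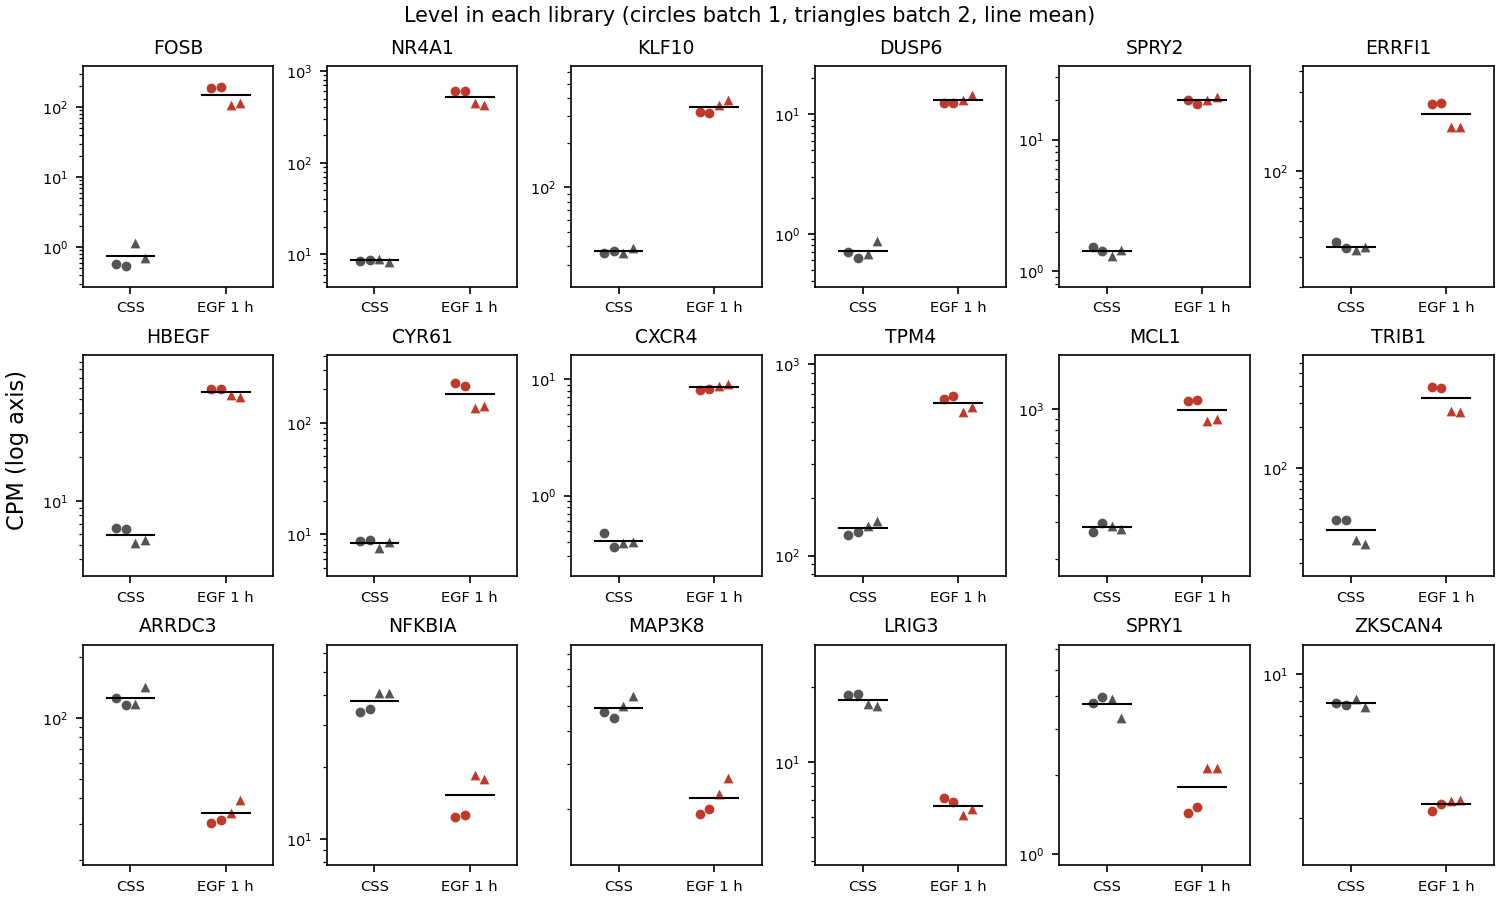
CPM on a log axis is plotted for 18 genes, with 1 symbol per library (circles, batch 1; triangles, batch 2) and a line at the group mean, for CSS and EGF 1 hour. In each panel the 4 EGF libraries stand clear of the 4 CSS libraries, above them for the 12 rising genes and below them for the 6 falling genes.

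Genes that switch off ERK signaling also rose. The dual-specificity phosphatases of the DUSP family remove phosphates from ERK, JNK, and p38. Of 11 tested, 6 were higher DEGs, 9 were higher by adjusted P value alone, none was lower, and the median log2 fold change was 1.12. *DUSP5*, a nuclear phosphatase specific for ERK, was at 2.32, 2.09, 2.00, and 2.30 CPM in CSS and at 67.3, 65.9, 48.2, and 46.1 CPM with EGF (log2 fold change 4.69, SE 0.09, edgeR adjusted P = 4.73e-25). *DUSP6*, its cytoplasmic counterpart, was at 0.702, 0.630, 0.675, and 0.862 and 12.5, 12.5, 13.2, and 14.4 CPM, respectively (log2 fold change 4.19, SE 0.14, edgeR adjusted P = 1.31e-19). Both genes were low in every CSS library and high in every EGF library. *DUSP2* rose from 7.46 ± 0.626 to 70.6 ± 17.8 CPM, and *DUSP10*, *DUSP4*, and *DUSP14* rose by 2.06, 1.17, and 1.12 on the log2 scale. *DUSP1*, an early response gene in many cells, rose by 0.57, short of the fold limit, and *DUSP7* and *DUSP9* did not pass.

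Sprouty and Spred proteins block the step from receptor to RAF, and their genes moved in opposite directions. *SPRY2*, *SPRY4*, and *SPRED2* were higher DEGs and *SPRY1* was a lower DEG, out of 7 tested. *SPRY2* was at 1.52, 1.42, 1.32, and 1.46 CPM in CSS and at 20.0, 18.8, 19.8, and 20.9 CPM with EGF (log2 fold change 3.80, SE 0.10, edgeR adjusted P = 4.37e-22). *SPRY1* was at 3.75, 3.97, 3.89, and 3.30 CPM in CSS and at 1.43, 1.51, 2.12, and 2.13 CPM with EGF (log2 fold change -1.05, SE 0.13, edgeR adjusted P = 2.72e-07). Neither gene had overlapping groups. On the TPM scale, *SPRY2* went from 1.26 to 18.0 and *SPRY1* from 2.81 to 1.41. *SPRY3* also fell, by 0.79 on the log2 scale, below the fold limit.

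Genes linked to the receptor itself changed in 2 directions as well. *ERRFI1*, which encodes MIG6, a protein that binds the EGFR kinase and blocks it, was at 37.0, 34.2, 33.2, and 34.9 CPM in CSS and at 253, 258, 183, and 184 CPM with EGF (log2 fold change 2.65, SE 0.08, edgeR adjusted P = 7.85e-21). *LRIG3*, a membrane protein of a family that binds ERBB receptors, was at 18.6, 18.8, 17.2, and 16.8 CPM in CSS and at 7.15, 6.86, 6.08, and 6.45 CPM with EGF (log2 fold change -1.43, SE 0.06, edgeR adjusted P = 7.46e-17). Both sets of libraries were well separated. No other gene of this list of 18 was a DEG, and the receptor genes *EGFR*, *ERBB2*, and *ERBB3* had log2 fold changes of 0.00, 0.05, and -0.06 and did not pass. The ubiquitin ligase genes *CBL* and *CBLB*, which mark EGFR for degradation, were at 0.09 and 0.02, also short of the adjusted P value.

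mRNA decay factors shorten the life of early response transcripts. *ZFP36*, which encodes tristetraprolin, was at 9.04, 8.92, 9.18, and 8.49 CPM in CSS and at 117, 111, 97.1, and 94.9 CPM with EGF (log2 fold change 3.55, SE 0.11, edgeR adjusted P = 4.36e-20). It was the 1 DEG among 11 tested genes of this kind. Its relatives *ZFP36L1* and *ZFP36L2* rose by 0.73 and 0.73 on the log2 scale. By contrast, *ZC3H12A*, an endonuclease that cuts inflammatory transcripts, fell from 27.4 ± 3.73 to 14.7 ± 1.26 CPM (log2 fold change -0.89, edgeR adjusted P = 3.24e-08).

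Cells given EGF also raised genes for further EGFR ligands. Of 8 tested EGF family ligand genes, *HBEGF* and *AREG* were higher DEGs and the other 6 did not pass. *HBEGF*, whose product is heparin-binding EGF-like growth factor, was at 6.58, 6.40, 5.2, and 5.40 CPM in CSS and at 58.8, 58.8, 53.0, and 51.9 CPM with EGF (log2 fold change 3.24, SE 0.08, edgeR adjusted P = 1.87e-22). *AREG*, which encodes amphiregulin, was at 0.157, 0.401, 0.210, and 0.292 and 4.35, 4.13, 2.83, and 3.05 CPM (log2 fold change 3.76, SE 0.25, edgeR adjusted P = 1.57e-12). In both genes the lowest EGF library exceeded the highest CSS library several times over. *TGFA* had a log2 fold change of 0.02 and EGF's own gene EGF one of -0.07.

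Secreted matrix proteins and proteases were among the largest rises. Of 20 tested genes, 9 were higher DEGs, 11 were higher by adjusted P value alone, none was lower, and the median log2 fold change was 1.15. *CYR61*, a matricellular protein that binds integrins, was at 8.62, 8.87, 7.51, and 8.48 CPM in CSS and at 227, 215, 136, and 142 CPM with EGF (log2 fold change 4.42, SE 0.14, edgeR adjusted P = 4.74e-20). Its relative *CTGF* held 6 counts over all CSS libraries and 2407 over the EGF libraries. *CTGF* reached 7.99 ± 0.558 CPM with EGF. *TIMP3*, an inhibitor of metalloproteinases, rose from 0.277 ± 0.127 to 5.96 ± 2.01 CPM, and *THBS1*, which encodes thrombospondin 1, from 21.3 ± 1.99 to 66.4 ± 6.78 CPM. The *PLAU* gene for urokinase had a fitted log2 fold change of 2.30 that did not pass, and *PLAUR* did not pass either.

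The metalloproteinase genes that rose, 5 in this list, did so from low levels. *MMP10*, or stromelysin 2, was at 0.363, 0.344, 0.409, and 0.449 CPM in CSS and at 44.5, 41.0, 38.5, and 42.9 CPM with EGF (log2 fold change 6.72, SE 0.30, edgeR adjusted P = 1.07e-16). *MMP1*, or interstitial collagenase, held 2 counts over the CSS libraries and 943 over the EGF libraries, a ratio of 508 with a 95% counting interval of 140.4 to 4205. *MMP13* rose from 0.739 ± 0.144 to 3.58 ± 0.183 CPM and *MMP7*, or matrilysin, from 0.753 ± 0.194 to 1.90 ± 0.357 CPM. *MMP3* had no count in any CSS library and 21 in all with EGF, so that it was at least 7.55-fold higher when CSS was set to 3 counts over the group. Its call did not hold within either batch alone. *ADAMTS1*, a secreted protease and at 312 TPM in CSS the highest gene of the list, rose to 634 TPM, just short of the fold limit (log2 fold change 0.98, edgeR adjusted P = 7.34e-09).

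Genes of the actin cytoskeleton also rose, some of them abundant. Of 21 tested genes, 6 were higher DEGs, 11 were higher by adjusted P value alone, and none was lower. *ACTB* was at 2093, 2097, 2038, and 1976 CPM in CSS and at 4319, 4238, 3952, and 4046 CPM with EGF (log2 fold change 1.01, SE 0.05, edgeR adjusted P = 9.00e-17). *TPM4*, a tropomyosin that coats actin filaments in nonmuscle cells, was at 127, 133, 142, and 152 CPM in CSS and at 655, 682, 564, and 598 CPM with EGF (log2 fold change 2.18, SE 0.09, edgeR adjusted P = 5.38e-18). Both genes rose in each of the 2 batches, without overlap. *CNN2* and *ZYX*, which encode calponin 2 and the focal adhesion protein zyxin, rose from 24.9 ± 2.43 to 83.2 ± 1.05 CPM and from 72.9 ± 5.79 to 263 ± 16.9 CPM. *FHL2*, a LIM protein that shuttles between adhesions and the nucleus, rose from 0.201 ± 0.0578 to 2.79 ± 0.331 CPM. *CNN1*, or calponin 1, had no count in CSS, and its level with EGF was at least 7.19-fold higher than 3 counts over the group would give, a call that was lost in each batch alone. *ACTG1* and *VCL* rose by 0.75 and 0.75 on the log2 scale, below the fold limit, and the other tropomyosin genes *TPM1*, *TPM2*, and *TPM3* did not pass. *ACTB* shares sequence with the actin part of *POTEE* and *POTEM*, which were called higher too, so those calls are uncertain. The 3 genes together went from 2059 to 4155 CPM.

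SRF binds a sequence known as the CArG box, and promoters of the rising genes were searched for it. The promoter was taken as the 250 bases before and 50 bases after the start of each gene in RefSeq, on build GRCh38.p14, and 12995 of the genes tested matched an entry by symbol. The box reads the same on both strands, so that 1 search covered both. It was present in 15 of 187 matched promoters of rising DEGs (8.02%), in 1 of 35 of falling DEGs (2.86%), and in 1.12% of all tested genes with a promoter, beside 1.29% of all 27305 promoters in the RefSeq table. In the actin and SRF list, 5 of 18 promoters held it (27.8%). That list was compiled to include known SRF targets, so its share is a description only. The motif TGANTCA, bound by AP-1, was in 9.63% of promoters of rising DEGs. It was in 4.99% of all tested genes with a promoter and in 7.76% of all promoters in the RefSeq table. For TGACGTCA, bound by CREB and ATF proteins, these shares were 5.35%, 2.95%, and 1.98%. For GCGTGGGCG, searched on both strands, they were 1.60%, 1.28%, and 0.784%. A match describes letters in this window, not a bound site.

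The promoters of 4 genes with the box are shown because these genes rose and are linked to SRF or actin, with the box in capitals and the last base shown lying just before the annotated start. *SRF* holds 2 boxes, 20 and 0 bases before its own start (chr6:43171019-43171268, plus strand). In *TPM4* the box ends 163 bases before the start (chr19:16067288-16067537, plus strand), in *CNN2* 79 bases (chr19:1026358-1026607, plus strand), and in *FHL2* 91 bases (chr2:105438514-105438763, minus strand).
SRF: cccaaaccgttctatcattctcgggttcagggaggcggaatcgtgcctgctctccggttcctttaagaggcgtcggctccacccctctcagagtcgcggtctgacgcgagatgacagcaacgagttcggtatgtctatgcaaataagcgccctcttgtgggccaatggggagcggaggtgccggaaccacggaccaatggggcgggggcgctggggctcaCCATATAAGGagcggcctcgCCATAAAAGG
TPM4: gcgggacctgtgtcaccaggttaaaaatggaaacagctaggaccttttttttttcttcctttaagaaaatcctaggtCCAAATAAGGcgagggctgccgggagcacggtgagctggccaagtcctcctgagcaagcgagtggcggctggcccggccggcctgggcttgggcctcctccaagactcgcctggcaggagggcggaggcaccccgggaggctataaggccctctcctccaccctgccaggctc
CNN2: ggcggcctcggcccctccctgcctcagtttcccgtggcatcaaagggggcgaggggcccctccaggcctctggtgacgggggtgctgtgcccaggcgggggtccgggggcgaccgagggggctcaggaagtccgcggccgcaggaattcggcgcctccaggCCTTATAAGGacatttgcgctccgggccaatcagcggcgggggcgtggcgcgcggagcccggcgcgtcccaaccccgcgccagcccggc
FHL2: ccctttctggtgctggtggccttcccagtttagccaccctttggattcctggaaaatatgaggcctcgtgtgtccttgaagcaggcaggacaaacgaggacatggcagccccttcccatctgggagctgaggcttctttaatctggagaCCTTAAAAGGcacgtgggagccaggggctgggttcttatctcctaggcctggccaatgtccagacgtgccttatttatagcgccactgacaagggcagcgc
The 4 genes rose by 2.15, 2.18, 1.74, and 3.81 on the log2 scale, respectively. Other rising DEGs with the box include *ACTA1* and *ACTG2*, the actins of skeletal and enteric smooth muscle, at 0.562 ± 0.207 and 0.680 ± 0.181 CPM with EGF. *ACTA1* and *ACTG2* were chosen after their values were seen.

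Single adhesion genes outside the lists were also rising DEGs, chosen after their values were seen. *MYADM*, a membrane protein of lipid rafts, rose from 63.8 ± 5.34 to 254 ± 26.6 CPM, and the integrin adaptor genes *NEDD9* and *FERMT2* from 19.9 ± 1.94 to 79.6 ± 17.8 and from 25.0 ± 1.81 to 69.5 ± 4.88 CPM. Among small GTPases and RGS proteins, *RASD1*, *RGS2*, *GEM*, and *RND3* were higher DEGs out of 17 tested. *RASD1*, a RAS-like G protein that dexamethasone also induces, was at 3.90, 3.80, 3.58, and 4.02 CPM in CSS and at 112, 97.8, 53.3, and 54.1 CPM with EGF (log2 fold change 4.36, SE 0.18, edgeR adjusted P = 3.13e-17). *RGS2*, which shuts off heterotrimeric G proteins, rose from 0.495 ± 0.0465 to 3.92 ± 0.201 CPM. The libraries of both genes were far apart. By contrast, *RND3* stayed at 0.210 ± 0.0943 CPM with overlapping groups and did not pass the adjusted P value in 6 of 17 alternatives. *RHOB*, an early response GTPase in other cells, rose by only 0.39.

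Genes first known from active neurons and from leukocytes also rose in these epithelial cells. *ARC*, a synaptic protein, went from 0.128 ± 0.0272 to 8.90 ± 0.347 CPM (log2 fold change 6.09), and *VGF*, a neuropeptide precursor, from 0.909 ± 0.163 to 6.13 ± 1.38 CPM. The other 6 tested genes of that list were not DEGs. *CXCR4*, the receptor for the chemokine CXCL12, was at 0.472, 0.358, 0.387, and 0.401 CPM in CSS and at 8.17, 8.35, 8.73, and 9.13 CPM with EGF (log2 fold change 4.4, SE 0.19, edgeR adjusted P = 2.97e-17). No EGF library was near the CSS range. Receptors that couple to G proteins rose further in *GPR3*, from 0.177 ± 0.0553 to 3.33 ± 0.528 CPM, and in *PTGER4*, a prostaglandin E receptor, from 1.07 ± 0.224 to 6.46 ± 1.73 CPM. *GPR3* and *PTGER4* were chosen after their values were seen. *C8orf4* reached 21.5 ± 2.88 CPM from 0.662 ± 0.0839 CPM (log2 fold change 5.02, edgeR adjusted P = 5.24e-17).

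NF-kappaB genes showed falls of the inhibitor genes *NFKBIA* and *TNFAIP3* beside rises of other members. NF-kappaB is a family of transcription factors held in the cytoplasm by IkB proteins. Of 18 tested genes, *CXCL8* was a higher DEG and *NFKBIA* and *TNFAIP3* were lower DEGs. By adjusted P value alone, 5 were higher and 3 lower. *NFKBIA*, which encodes IkB-alpha, was at 34, 35.0, 40.9, and 40.7 CPM in CSS and at 12.4, 12.5, 18.4, and 17.9 CPM with EGF (log2 fold change -1.31, SE 0.09, edgeR adjusted P = 5.61e-12). *TNFAIP3*, which encodes the deubiquitinase A20, fell from 2.42 ± 0.580 to 1.09 ± 0.0900 CPM (log2 fold change -1.13, edgeR adjusted P = 1.44e-06). It did not pass in batch 2 alone (edgeR adjusted P = 0.0604). Both inhibitors are themselves known targets of NF-kappaB. *CXCL8*, the neutrophil chemokine interleukin-8, held 7 counts over the CSS libraries and 504 over the EGF libraries. *REL*, *RELB*, *NFKBIE*, and *NFKBIZ* rose by 0.54, 0.62, 0.33, and 0.66 on the log2 scale, below the fold limit, and *NFKB1* and *NFKB2* did not pass.

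Single genes of the TNF receptor family and of its signaling were DEGs. No list of this kind was counted, and those named here other than *MAP3K8* were chosen after their values were seen. *TNFRSF12A*, the receptor for TWEAK, rose from 18.2 ± 2.65 to 88.2 ± 3.28 CPM (log2 fold change 2.29, edgeR adjusted P = 3.67e-18), and *TNFRSF21*, or death receptor 6, from 34 ± 2.11 to 79.3 ± 7.43 CPM. *MAP3K14*, the kinase NIK of the noncanonical NF-kappaB pathway, rose from 14.5 ± 2.12 to 91.6 ± 6.29 CPM, and *BCL10*, an adaptor upstream of NF-kappaB, from 25.7 ± 0.968 to 62.5 ± 3.24 CPM. *MAP3K8*, the kinase COT, moved the other way, from 4.77, 4.51, 5.01, and 5.50 CPM in CSS to 1.91, 2.00, 2.28, and 2.65 CPM with EGF (log2 fold change -1.17, SE 0.10, edgeR adjusted P = 1.24e-10). Its EGF libraries all lay below the CSS range. *FAS*, the CD95 death receptor, rose by 1.07 but did not pass in batch 2 alone (edgeR adjusted P = 0.126).

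Survival genes of the *BCL2* family moved in few members, and cell cycle genes in more. *MCL1*, which protects mitochondria from apoptosis, was at 269, 296, 286, and 278 CPM in CSS and at 1093, 1109, 879.9, and 897 CPM with EGF (log2 fold change 1.81, SE 0.07, edgeR adjusted P = 9.34e-18). It was the 1 DEG among 14 tested *BCL2* family genes. *PMAIP1*, or NOXA, which binds MCL1, rose by 0.93, and the proapoptotic *BMF* fell by 0.41 on the log2 scale, both below the fold limit. *BCL2*, *BCL2L1*, and *BCL2L11* did not pass. Of 19 tested genes for polo-like kinases, cyclins, and their inhibitors, *PLK2*, *PLK3*, *GADD45B*, and *CCNG2* were higher DEGs. By adjusted P value alone, 9 of the 19 were higher and 1 was lower. *CCNG2*, an atypical cyclin of resting cells, rose from 151 ± 9.66 to 388 ± 15.8 CPM (log2 fold change 1.37, edgeR adjusted P = 6.05e-15), and *PLK2*, a stress-responsive kinase, from 38.6 ± 4.62 to 152 ± 8.57 CPM. *CCND1*, the cyclin that carries mitogen signals into the cell cycle, had a log2 fold change of -0.07 and did not pass. *CDKN1B*, which encodes the inhibitor p27, rose by 0.67, below the fold limit.

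The PI3K pathway list mixed rises and falls. Of 27 tested genes linked to FOXO factors or PI3K, *TRIB1*, *SGK1*, and *BCL6* were higher DEGs and 0 were lower DEGs, and by adjusted P value alone 5 were higher and 6 lower. Neither direction led throughout the alternatives, with 7 higher and 6 lower under the replicate block and 3 of each in batch 2 alone. *TRIB1*, a pseudokinase that directs protein degradation, was at 41.1, 41.4, 29.4, and 27.3 CPM in CSS and at 396, 387, 264, and 261 CPM with EGF (log2 fold change 3.23, SE 0.08, edgeR adjusted P = 5.28e-23). The 6 that fell each did so below the fold limit. *SESN1*, a sestrin that restrains mTORC1, fell from 341 ± 34.5 to 196 ± 12.1 CPM, but did not pass in batch 2 alone (edgeR adjusted P = 0.126). *PIK3IP1*, an inhibitor of PI3K, fell by 0.64 and *PIK3R1*, the regulatory subunit p85, by 0.61 on the log2 scale. *C10orf10*, also called DEPP, fell by 0.89, but did not pass in batch 1 alone (edgeR adjusted P = 0.641). *KLHL24* and *CITED2* passed with log2 fold changes of -0.35 and -0.25, and their groups overlapped. *IRS2* and *PIK3R3* did not pass.

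TGF-beta and Notch genes gave small sets of DEGs. *GDF15*, a secreted stress cytokine, was at 206, 217, 243, and 241 CPM in CSS and at 774, 741, 739.6, and 727 CPM with EGF (log2 fold change 1.73, SE 0.07, edgeR adjusted P = 1.87e-17). *ID1* and *ID2*, which block basic helix-loop-helix factors, rose by 1.66 and 1.87 on the log2 scale. In contrast, the inhibitory SMAD genes *SMAD7* and *SMAD6* fell by 0.99 and 0.63 on the log2 scale, below the fold limit, and did not pass in batch 2 alone (*SMAD7*, edgeR adjusted P = 0.0582). In the Notch, Wnt, and Hedgehog list of 23 tested genes, *NRARP* and *DLL1* were higher DEGs and the Wnt receptor gene *FZD8* was a lower DEG, from 2.60 ± 0.200 to 1.15 ± 0.129 CPM. Of 16 tested clock genes, *PER1* and *PER2* were higher DEGs, by 1.61 and 1.08 on the log2 scale. *EPHA2*, a receptor tyrosine kinase, was the 1 DEG among 17 tested ephrin and Eph genes (log2 fold change 1.31, edgeR adjusted P = 1.04e-11).

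Genes of energy metabolism were also among the rising DEGs. *PFKFB3*, which makes the activator of phosphofructokinase, rose from 17.5 ± 0.949 to 48.1 ± 2.96 CPM, and the mitochondrial carrier gene *SLC25A25* from 42.4 ± 3.97 to 160.2 ± 41.4 CPM. *SLC2A4*, the insulin-responsive glucose transporter GLUT4, reached 10.4 ± 0.653 CPM from 3.56 ± 0.191 CPM. *PFKFB3*, *SLC25A25*, and *SLC2A4* were chosen after their values were seen.

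Single chromatin and cofactor genes were also among the rising DEGs. They too belong to no list that was counted and were chosen after their values were seen. *KDM3A*, a demethylase of histone H3 lysine 9, rose from 41.5 ± 1.81 to 105 ± 14.9 CPM, and *JMJD6*, a related oxygenase, from 18.7 ± 2.01 to 41.0 ± 2.27 CPM. *KDM6B*, which demethylates histone H3 lysine 27, rose by 1.13 but did not pass in batch 2 alone (edgeR adjusted P = 0.0823). *SERTAD1*, a cofactor of E2F, rose from 5.97 ± 0.897 to 65.9 ± 6.21 CPM (log2 fold change 3.47). *TUFT1*, first described in tooth enamel, rose from 55.8, 53.9, 49.4, and 48.5 CPM in CSS to 353, 376, 297, and 321 CPM with EGF (log2 fold change 2.7, SE 0.08, edgeR adjusted P = 2.67e-21). Of 12 tested nuclear noncoding RNAs, the microRNA host genes *MIR17HG* and *MIR22HG* were higher DEGs, by 1.65 and 1.64, while *MALAT1* and *NEAT1* did not pass.

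**Figure D3:**
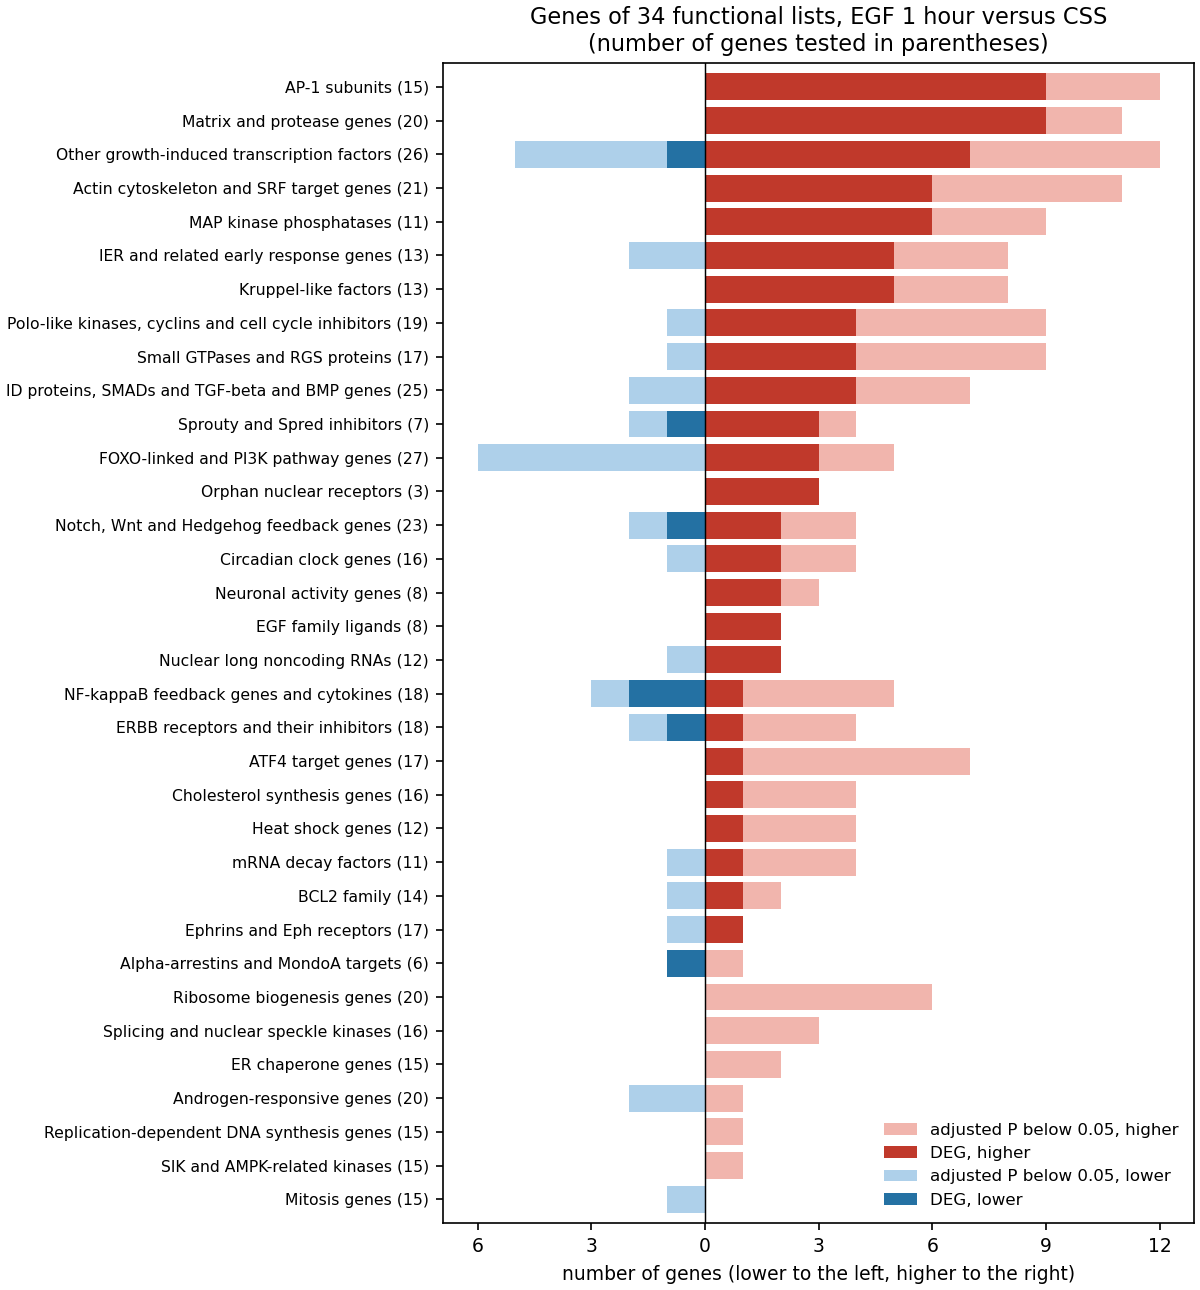
For each gene list, bars to the right count tested genes that were higher with EGF and bars to the left those that were lower (light, adjusted P value below 0.05; dark, also beyond a log2 fold change of 1). Rising genes dominate the AP-1, DUSP, matrix, and actin lists, and the FOXO and PI3K list holds 6 falling and 5 rising genes.

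Most of the falling DEGs were present at low level. Their median level in CSS was 0.905 TPM, and 32 of the 45 were below 1 TPM with EGF. *ARRDC3*, an alpha-arrestin that guides receptors to degradation, was at 125, 115, 117, and 142 CPM in CSS and at 30.4, 31.4, 34.1, and 39.3 CPM with EGF (log2 fold change -1.89, SE 0.13, edgeR adjusted P = 3.35e-12). Among the 4 falling DEGs above 10 TPM in CSS, only *TXNIP*, also an alpha-arrestin, fell further on the log2 scale. *ARRDC1* and *ARRDC4* did not pass, with log2 fold changes of -0.01 and -0.12, and *ARRDC2* rose by 0.35. *OTX1*, a homeobox gene, fell from 2.73 ± 0.150 to 1.23 ± 0.159 CPM. *RIMBP3* and *RIMBP3B* are near-identical copies, so each call is uncertain. Their sum went from 6.55 ± 0.584 to 2.37 ± 0.377 CPM. *PLGLB1* and *PLGLB2*, another such pair, were called in opposite directions, *PLGLB2* with a fitted rise of 6.2. Their sum went from 1.61 ± 0.0765 to 1.07 ± 0.144 CPM, and *PLGLB2* lost its call in DESeq2 (adjusted P = 0.639).

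Zinc finger genes named ZNF plus a number leaned downward in a large group with small changes. Of 496 tested, 119 (24.0%) were lower and 43 (8.67%) higher by adjusted P value alone, beside 3.51% and 6% of all genes tested. Their median log2 fold change was -0.10, and it stayed between -0.14 and -0.05 over 12 alternatives. The counts moved more, from 24 lower and 13 higher in batch 2 alone to 169 lower and 61 higher with the replicate block, and lower genes outnumbered higher ones in each of the 12. Only 4 of them were lower DEGs and 6 were higher DEGs. *ZNF792* was at 6.60, 6.75, 6.16, and 6.17 CPM in CSS and at 2.10, 2.04, 2.78, and 2.43 CPM with EGF (log2 fold change -1.45, SE 0.12, edgeR adjusted P = 3.15e-10), and *ZNF624* fell from 7.73 ± 0.538 to 3.26 ± 0.138 CPM. The groups of both were separate. *ZNF709* fell by 1.01 on the log2 scale but did not pass in batch 2 alone (edgeR adjusted P = 0.0754). *ZKSCAN4*, a related KRAB zinc finger gene outside the naming rule of the group, fell from 7.83, 7.71, 8.13, and 7.59 to 3.17, 3.35, 3.44, and 3.49 CPM (log2 fold change -1.22, SE 0.06, edgeR adjusted P = 2.78e-16). In the opposite direction, *ZNF644* rose from 70.5 ± 2.65 to 181 ± 6.23 CPM, and it was chosen after its values were seen. Members of this family resemble each other in sequence, so that reads may have been divided between them.

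Several lists for pathways that growth factors are known for held no DEG at 1 hour. DEGs were 1.72% of all genes tested, so lists of 15 to 20 genes would hold few or none at that share. Counts at an unadjusted P below 0.05 are to be read beside 18.6% of all genes tested, in either direction. Of 20 tested ribosome biogenesis genes, 0 were DEGs in edgeR and in DESeq2. By adjusted P value 6 (30%) were higher, beside 6% of all genes tested, and 10 were higher at an unadjusted P below 0.05. The highest was *WDR43*, with a log2 fold change of 0.39. Of 15 tested DNA synthesis genes, 0 were DEGs with either tool and 3 passed at an unadjusted P below 0.05, and of 15 mitosis genes, 0 were DEGs with either tool and 1 passed at an unadjusted P below 0.05, *KIF20A* (log2 fold change -0.30). The 20 androgen-responsive genes likewise held 0 DEGs with either tool, and 4 passed at an unadjusted P below 0.05. *KLK2* and *KLK3* were at -0.01 and 0.00 on the log2 scale. Within that list, *TSC22D3*, or GILZ, fell from 63.2 ± 6.34 to 33.8 ± 1.59 CPM (log2 fold change -0.89, edgeR adjusted P = 1.21e-07). This fell short of the fold limit, and *ZBTB10* rose by 0.62. The lists of ER chaperones, of splicing and nuclear speckle kinases, and of SIK and related kinases held 0 DEGs each with either tool out of 15, 16, and 15 tested, with 3, 7, and 2 at an unadjusted P below 0.05. Of 17 tested ATF4 targets, 7 were higher by adjusted P value and *CHAC1*, which degrades glutathione, was the 1 DEG. Of 12 heat shock genes, *DNAJB1* was the 1 DEG, and *HSPB1* rose by 0.99.

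The DEGs were then followed to other times of EGF. At 5 minutes, 1 of the 16995 genes was a DEG against CSS (0.00588%) in edgeR. That gene was *EGR1*, and 251 genes had an unadjusted P below 0.05 (1.48%), while DESeq2 called 2. At 4 hours, 144 of the 248 rising DEGs were lower than at 1 hour, 51 were higher, and 53 did not pass, by adjusted P value in the direct contrast, beside 21.5% lower and 22.5% higher of all genes tested. With the fold limit, 104 of the 248 were lower and 34 higher at 4 hours, beside 3.39% lower, 4.83% higher, and 8.22% in either direction of all genes tested. Without adjustment, 49.8% of all genes had a P below 0.05. Of the 45 falling DEGs, 23 were higher at 4 hours than at 1 hour, 2 were lower, and 20 did not pass. The libraries taken at 1 hour enter both comparisons, so these counts are a description.

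The early genes below were lower at 4 hours than at 1 hour, except *DUSP6*. *FOSB* was at 0.767 ± 0.119 CPM at 5 minutes, 149 ± 44.3 CPM at 1 hour, and 0.869 ± 0.0703 CPM at 4 hours (4 hours minus 1 hour, log2 -7.41, edgeR adjusted P = 7.35e-20). *NR4A1* was back at 11.9 ± 1.3 CPM and *CYR61* at 6.82 ± 0.365 CPM by 4 hours. *ATF3* fell back to 29.3 ± 4.36 CPM, below its CSS mean of 55.0 ± 3.62, and *TRIB1* to 50.6 ± 7.87 CPM. Of the feedback genes, *SPRY2* and *ERRFI1* differed by -2.76 and -2.01 on the log2 scale (4 hours minus 1 hour), whereas *DUSP6* rose further, to 27.3 ± 4.68 CPM.

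Other rising DEGs were higher still at 4 hours. *MMP10* reached 211 ± 85.9 CPM at 4 hours, *MMP1* 14.7 ± 5.27 CPM, and *MMP7* 23.8 ± 2.58 CPM. *PHLDA2* reached 598 ± 49.0 CPM, *TNFRSF12A* 246 ± 51.8 CPM, *CXCR4* 29.8 ± 7.87 CPM, and *VGF* 23.0 ± 4.24 CPM, each higher than at 1 hour by adjusted P value. *ETV4*, at 0.166 ± 0.0701 CPM at 1 hour, was at 11.0 ± 0.50 CPM at 4 hours (log2 difference 6.01, edgeR adjusted P = 3.57e-19). The potassium channel genes *KCNA1* and *KCNF1* and the membrane protein gene *EMP1* had log2 differences of 4.09, 3.33, and 3.12. *KCNA1* held 0 counts in CSS and 14 over the EGF libraries at 1 hour, and between these it did not pass the adjusted P value in 9 of 16 alternatives. Of the actin genes, *TPM4* had a log2 difference of -0.01 (SE 0.08) and *CNN2* one of -0.02 (SE 0.06), neither of which passed, and *ZYX* rose further, to 497 ± 75.7 CPM.

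Among the falling DEGs, *ARRDC3* recovered to 107 ± 7.41 CPM at 4 hours, *NFKBIA* to 31.4 ± 0.796 CPM, and *SPRY1* to 3.21 ± 0.205 CPM. *SOX9* was at 9.43 ± 1.38 CPM at 4 hours, beside 6.43 ± 1.29 CPM in CSS (4 hours minus 1 hour, log2 1.64, edgeR adjusted P = 7.88e-13). *LRIG3* rose to 9.15 ± 0.586 CPM.

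**Figure D4:**
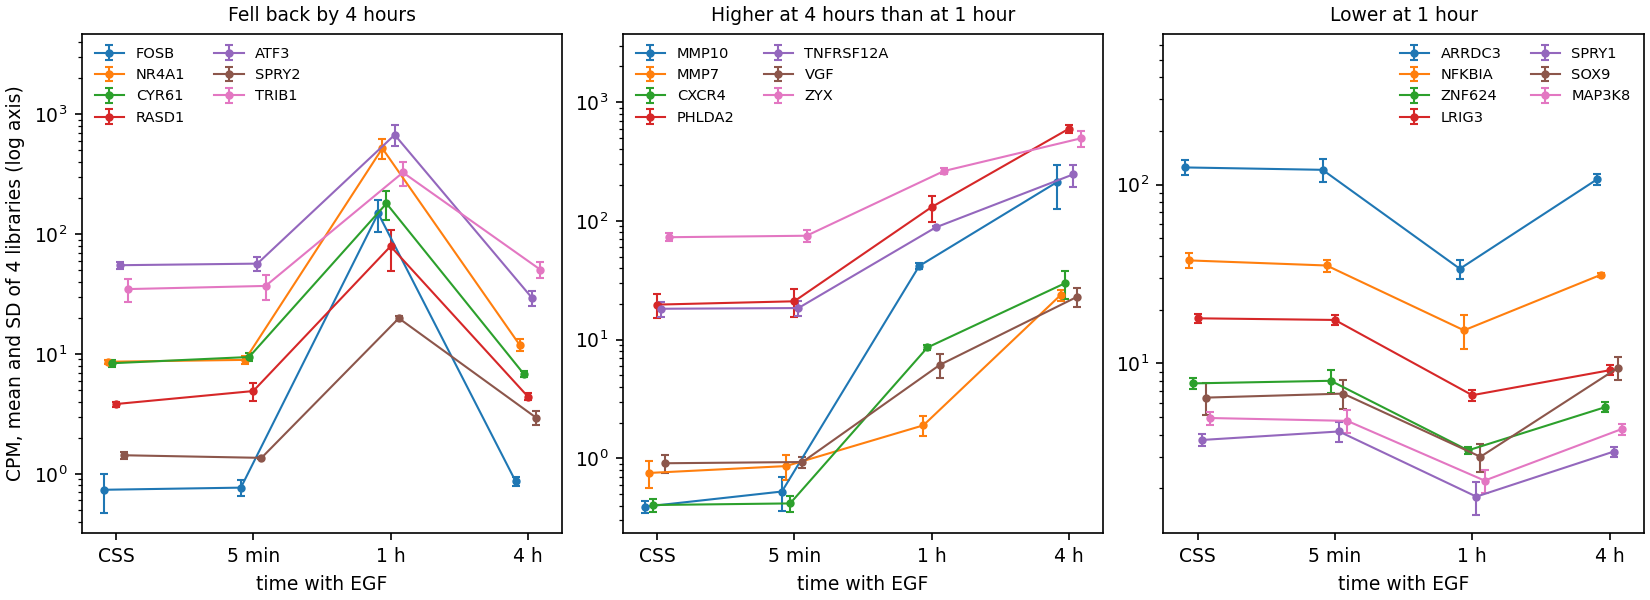
Mean CPM ± SD (log axis, 4 libraries per point) is plotted in CSS and at 5 minutes, 1 hour, and 4 hours of EGF, for 7 genes each that rose and then declined, kept rising, or fell at 1 hour. The first set returns toward CSS by 4 hours, and the third set is higher at 4 hours than at 1 hour.

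NRG-1, which binds HER3 and HER4 rather than EGFR, was given to other cultures at the same dose and for the same time. In the direct contrast, which does not use the CSS libraries, 29 genes were higher with EGF than with NRG-1 (0.171% of genes tested) and 0 were lower in edgeR. An unadjusted P below 0.05 in the lower direction was reached by 635 genes, and in either direction by 8.22% of genes, and DESeq2 called 27 higher and 0 lower. All 29 were among the 248 rising DEGs. By adjusted P value alone, 103 of the 248 were higher with EGF and 0 lower, beside 0.941% and 0.118% of all genes tested, and 4 of the 45 falling DEGs were lower with EGF, among them *ZNF624* and *ZKSCAN4*. The EGF libraries at 1 hour enter both comparisons, so these counts too are a description.

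Several of the genes that differed most encode secreted or matrix proteins. *TIMP3* was at 5.96 ± 2.01 CPM with EGF and 1.52 ± 0.112 CPM with NRG-1 (log2 difference 1.90, SE 0.19, edgeR adjusted P = 1.62e-07). *CTGF* was at 7.99 ± 0.558 and 2.45 ± 1.53 CPM (log2 difference 1.88), and *MMP1* at 3.15 ± 0.679 and 0.905 ± 0.321 CPM (1.78). *FOSB*, *CYR61*, and *AREG* differed by 1.59, 1.27, and 1.20 on the log2 scale, and *ERRFI1* and *NR4A1* by 1.18 and 1.20. *FLRT3*, an adhesion protein, and *GPR183*, an oxysterol receptor, differed by 1.98 and 1.72 at levels of 0.127 ± 0.0378 and 0.291 ± 0.0985 CPM with EGF.

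Other strongly induced genes did not differ detectably between the ligands. *FOS* had a log2 difference of -0.03 (SE 0.24, edgeR adjusted P = 0.973), *JUNB* one of -0.10 (SE 0.12), and *KLF10* one of 0.16 (SE 0.08). *DUSP6* and *SPRY4* were at -0.14 and -0.19, with SEs of 0.11 and 0.17. *HES1* and *ID1* gave -0.12 and -0.44 without passing. Among falling genes, *ARRDC3* was at 33.8 ± 3.99 CPM with EGF and 47.7 ± 10.6 CPM with NRG-1 and just missed the threshold (log2 difference -0.50, SE 0.13, edgeR adjusted P = 0.0528). *NFKBIA* and *LRIG3* had log2 differences of -0.25 and -0.22, which did not pass.

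**Figure D5:**
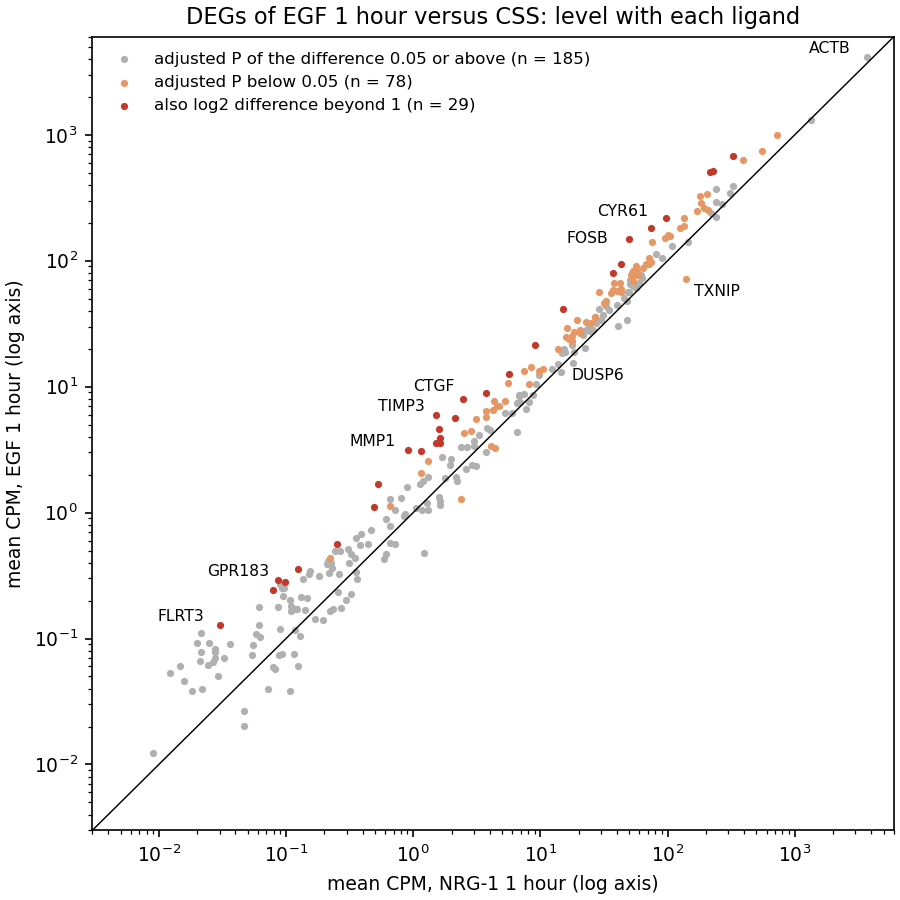
For 292 of the 293 DEGs, the mean CPM with EGF at 1 hour is plotted against that with NRG-1 at 1 hour, on log axes with a line of equal levels (*PLGLB2* is left out because it was at 0 with NRG-1). The 29 genes that differed beyond a log2 of 1 all lie on the EGF side of the line, and 185 genes did not pass.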

How the data were processed

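Polyadenylated, strand-specific RNA of LNCaP cultures was sequenced by the authors, who trimmed reads with Trimmomatic 0.36 and aligned them to hg19 with STAR 2.7.0f, per the submitters' processing notes. The deposited values are RSEM expected counts and TPM per gene, estimated in stranded mode. Expected counts, of which 11.2% were not whole, were rounded. The 16995 of 25498 genes that reached 5 counts in 3 or more of the 32 libraries were kept, which held 99.997% of counts. They were scaled by TMM and fitted with the quasi-likelihood test of edgeR 4.0.16 in R 4.3.3, with group and batch as terms over all 32 libraries, and P values were adjusted by Benjamini-Hochberg over all genes tested. The script was tested on simulated data. The direct contrasts with NRG-1 at 1 hour and EGF at 4 hours came from the same fit. Alternatives used DESeq2 1.42.0, limma 3.58.1 on log2 TPM, other filters, a replicate block, each batch alone, and each library left out in turn. Replicate numbers come from the labels and lie within batches that all groups share. Deviations of same-numbered EGF and CSS libraries from their group means correlated with r of 0.222 to 0.337 across genes, and of 0.0689 and 0.17 once batch means were removed.

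Named genes were members of the 34 lists, the 15 largest rises and falls at an average log2 CPM of at least 1 with 1 direction in every pair (148 and 14 genes could enter), the 10 highest in TPM in each direction, and the 5 largest differences from NRG-1 and, in each direction, from 4 hours, without *EGR1* to *EGR4*, *TXNIP*, and *NUAK2*. The lists and genes were chosen with earlier results of these data known. Counting intervals and floors (3 counts over a group, 95% level) cover counting error only. Fitted fold changes of genes near 0 counts depend on the prior count. Some named genes are not reported here.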

Additional observations from a re-analysis of the deposited data

Results flagged for a closer look

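Among the genes named, 12 of 331 groups of 4 libraries (3.63%) held a library that stood apart by Dixon's 95% test of its gap to the nearest other, where chance gives about 1 in 20. In CSS, *ACTA1* was at 0.10 CPM in batch 1 replicate 2 and *KCNF1* at 0.0968 CPM in batch 1 replicate 1, each above the other 3 libraries. Batch 2 replicate 2 of CSS was lowest in *CSRNP1* (20.5 CPM) and *ETS2* (9.60 CPM) and highest in *FAS* (10.6 CPM). With EGF, batch 1 replicate 1 was lowest in *CNN2* (81.6 CPM) and *FOSL1* (4.17 CPM), and batch 1 replicate 2 was highest in *GPR183* (0.437 CPM). Batch 2 replicate 1 with EGF was lowest in *DUSP10* (43.6 CPM) and highest in *EMP1* (0.671 CPM) and *PFKFB3* (52.5 CPM), and batch 2 replicate 2 was lowest in *MAFK* (100.2 CPM). None of these libraries brought its group to overlap with the other.

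Among the DEGs that passed the edgeR adjusted P value in the direct contrast of EGF with NRG-1 at 1 hour, the largest log2 differences were those of *FLRT3* (1.98), *TIMP3* (1.90), *CTGF* (1.88), *MMP1* (1.78), and *GPR183* (1.72). From 1 to 4 hours of EGF, leaving out the EGR genes, the largest log2 decreases among the DEGs were those of *PLGLB2* (-8.47), *CTGF* (-7.92), *FOSB* (-7.41), *GPR183* (-5.89), and *NR4A1* (-5.44). The largest increases were those of *ETV4* (6.01), *KCNA1* (4.09), *MMP7* (3.67), *KCNF1* (3.33), and *EMP1* (3.12). All passed the edgeR adjusted P value. *PLGLB2* shares reads with its copy *PLGLB1*, and its CSS mean rests on almost no counts.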

How the results depend on the processing

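Of 167 named genes, 162 were past the threshold on the adjusted P value, 138 of them in every alternative, and 0 reversed. Counts of genes depended on the filter and scale. The edgeR fit gave 248 genes higher and 45 lower than CSS, 29 differing from NRG-1, 1397 differing between 4 hours and 1 hour, and 1 at 5 minutes. With at least 10 counts in every library these were 162, 23, 13, and 716, as fewer genes were tested. Batch 2 alone gave 21 lower, 4 against NRG-1, 876 against 4 hours, and 0 at 5 minutes. Limma on log2(TPM + 1) gave 140, 6, 18, 396, and 0, with and without a filter, and on log2(TPM + 0.1) 19 lower, 651 against 4 hours, and 0 at 5 minutes. The 5-minute count was 0 with only the groups compared and 2 with DESeq2. Without a fold limit the counts were 1020, 597, 180, and 7484. Leaving out 1 library at a time gave 226 to 244 higher, 37 to 50 lower, 22 to 30 against NRG-1, 1306 to 1448 against 4 hours, and 0 to 1 at 5 minutes, the 0 without CSS batch 2 replicate 1. The replicate block, pairing libraries by number within batch, gave 256, 53, 36, 1411, and 1 and moved no named gene across the adjusted P value threshold. Apart from the number of genes or samples, the causes were not tested. The depth limits genes near 0 counts in CSS, whose fold is a bound or a wide ratio.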

Other observations

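Further DEGs in groups not covered above were chosen after their values were seen. *GBP1*, a GTPase known as an interferon target, rose from 0.684 ± 0.0999 to 10.7 ± 1.10 CPM (log2 fold change 3.99, edgeR adjusted P = 5.76e-15). *AHR*, the receptor for dioxin-like compounds, rose from 12.3 ± 0.663 to 27.2 ± 1.11 CPM, *TAF5*, a subunit of TFIID, from 12.0 ± 0.497 to 32.0 ± 1.99 CPM, and *RBM15*, which recruits the RNA methylation complex, from 10.5 ± 0.787 to 25.3 ± 2.7 CPM. Among genes for glucose metabolism, *PDP1*, which activates pyruvate dehydrogenase, rose from 20.9 ± 3.22 to 56.9 ± 4.93 CPM and *PPP1R3B*, a glycogen-targeting phosphatase subunit, from 27.6 ± 1.03 to 58.6 ± 0.911 CPM. *TNFSF9*, the ligand of 4-1BB, rose by 1.73 on the log2 scale. *GDNF*, a neurotrophic factor, fell from 0.291 ± 0.0396 to 0.0609 ± 0.0391 CPM (log2 fold change -2.19, edgeR adjusted P = 2.94e-05).

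Of 58 tested histone genes named HIST plus a number, 2 were higher and 2 lower by adjusted P value, and the median log2 fold change was -0.19. *HIST1H1E* rose from 0.526 ± 0.0937 to 1.18 ± 0.483 CPM, and *HIST1H2AK* fell from 2.47 ± 0.178 to 1.63 ± 0.190 CPM. Most histone transcripts lack a poly(A) tail, and these libraries were made from polyadenylated RNA.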
